A study of Mus musculus with 19 samples.

Results

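The 10 genes described here encode the lipopolysaccharide (LPS) receptor complex and the first proteins it recruits inside the cell. They are Tlr4, Ly96, Cd14, Tlr2, Myd88, Ticam1, Ticam2, Tirap, Irak4 and Traf6, and they were found by gene symbol among the 16941 genes of the count tables. All 10 were measured, and all 10 passed the filter on low counts that left 14113 genes for testing. The cells were microglia, the resident macrophages of the brain, taken from the cortex of 10- to 11-month-old C57BL/6 mice. Before treatment they were cultured for 4 weeks with serum (10%) and the growth factor M-CSF (5 ng/mL). They then received LPS at 100 ng/mL or vehicle (medium) for 6 h, followed by 16 h in fresh medium. RNA was read from transcript 3′ ends by QuantSeq.

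The 4 groups were APP microglia with LPS (n = 5), APP microglia with vehicle (n = 5), WT microglia with LPS (n = 5) and WT microglia with vehicle (n = 4). APP mice carried the hAPPJ20 transgene, a human amyloid precursor protein with the Swedish and Indiana mutations under a PDGF promoter, and WT mice did not. That promoter is known for driving the transgene in neurons. All libraries came from cells that had spent the same weeks outside the brain in serum. Nothing in the labels ties a library to its own animal or culture. The p-values therefore describe the spread between libraries only, and this spread may be technical.

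In textbook biology, CD14 on the macrophage surface hands LPS to MD-2, the product of Ly96, which is bound to Toll-like receptor 4 (TLR4). The receptor then signals from the cell surface through TIRAP and MyD88 to the kinase IRAK4 and the ubiquitin ligase TRAF6, and after uptake from endosomes through TRAM (Ticam2) and TRIF (Ticam1). The MyD88 route leads to NF-κB and inflammatory cytokines, and the TRIF route leads to type I interferon, and TLR2, a receptor for bacterial lipoproteins, shares TIRAP, MyD88, IRAK4 and TRAF6.

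The libraries held 13065257 to 23165305 counts in APP LPS, 18990298 to 25502823 in APP vehicle, 15270080 to 25610461 in WT LPS and 17712123 to 31248988 in WT vehicle. Levels are given as CPM (counts scaled to a common library total), where the floor of 3 counts stood between 0.0963 and 0.249 CPM. The mouse App gene, which does not check the transgene, ranged over 982 to 1951, 1242 to 2091, 1355 to 1922 and 1313 to 2217 CPM in these groups. Of 14 microglia and macrophage markers 13 were in the tables. Their summed level was 845 to 1862 CPM in the 4 libraries numbered 57 to 60, 1 in each group (replicate 4 of WT vehicle, replicate 5 of the others), and 2932 to 6775 CPM in the other 15. Some defining microglia markers were sparse: P2ry12 was at 0 in 6 libraries and Tmem119 at 0 in 3. Of the other cell types, 12 markers of fibroblasts, pericytes and smooth muscle summed to 1246 to 5592 CPM in APP LPS, 1256 to 4787 in APP vehicle, 1775 to 3411 in WT LPS and 1708 to 3033 in WT vehicle. In libraries 57, 58, 59 and 60 this sum was 2608, 2928, 4787 and 5592 CPM. Their macrophage marker sums were lower, at 1862, 1414, 1409 and 845 CPM. The same held in library 3 (4336 against 3923 CPM) and library 4 (3897 against 2932 CPM), and in no other library. Over all libraries, marker sums were 249.8 to 819 CPM for endothelium (7 genes), 39.75 to 285 for astrocytes (7 genes), 20.5 to 220.2 for the oligodendrocyte lineage (5 genes) and 11.5 to 90.5 for neurons (4 genes). The endothelial sum was mostly Pecam1 (226 to 774 CPM). Cldn5 was at 0 in 15 libraries, Tek and Vwf in 12 each, Cdh5 and Kdr in 1 each and Flt1 in 0. The neuron sum was mostly Tubb3 (11.5 to 61.3 CPM), with Rbfox3 at 0 in 18 libraries, Snap25 in 15 and Map2 in 6. The libraries carry numbers, and 9 LPS libraries each have a vehicle library of the same genotype with the number before theirs (5 APP pairs, 4 WT pairs). In each of these pairs the libraries deviated together from their group means, so results are given both by group over 19 libraries and within the 9 pairs, which leave out WT LPS replicate 1.

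Cd14 (GRCm38 chromosome 18, 36725067 to 36726798, minus strand), which encodes the surface receptor that collects LPS, was the only one of the 10 members whose transcript passed a test after LPS. In APP microglia it stood at 130, 214, 230, 95.6 and 44.3 CPM with LPS and at 61.1, 128, 90.3, 70.5 and 24.25 CPM with vehicle (replicates 1 to 5). In WT microglia it stood at 243, 181, 171.5, 150 and 79.45 CPM with LPS and at 62.6, 54.1, 101 and 55.7 CPM with vehicle. The lowest LPS library of WT and the 2 lowest of APP lay inside the range of their vehicle libraries, so the groups overlapped in both genotypes. Of all genes, 0.588% in APP and 1.3% in WT had LPS and vehicle ranges that did not overlap, and 0 of the 10 members did. Mean levels were 143 ± 78.7 CPM with LPS against 74.8 ± 38.1 with vehicle in APP, and 165 ± 58.9 with LPS against 68.4 ± 22.1 with vehicle in WT (SD). In bulk libraries such as these, fewer cells of a type and less RNA per cell cannot be told apart.

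Within the pairs, Cd14 was higher with LPS in 9 of 9. The LPS library held 1.35 to 3.15 times the vehicle level, with a median log2 difference of 0.86 on the log2(CPM + 0.5) scale. The smallest ratio was in the APP pair of libraries 51 and 52, and the largest in the WT pair of libraries 21 and 22. Among all genes tested, 0.935% were higher with LPS in all 9 pairs and 1.06% were lower in all 9, and Cd14 was the 1 member in either class.

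**Figure D1:**
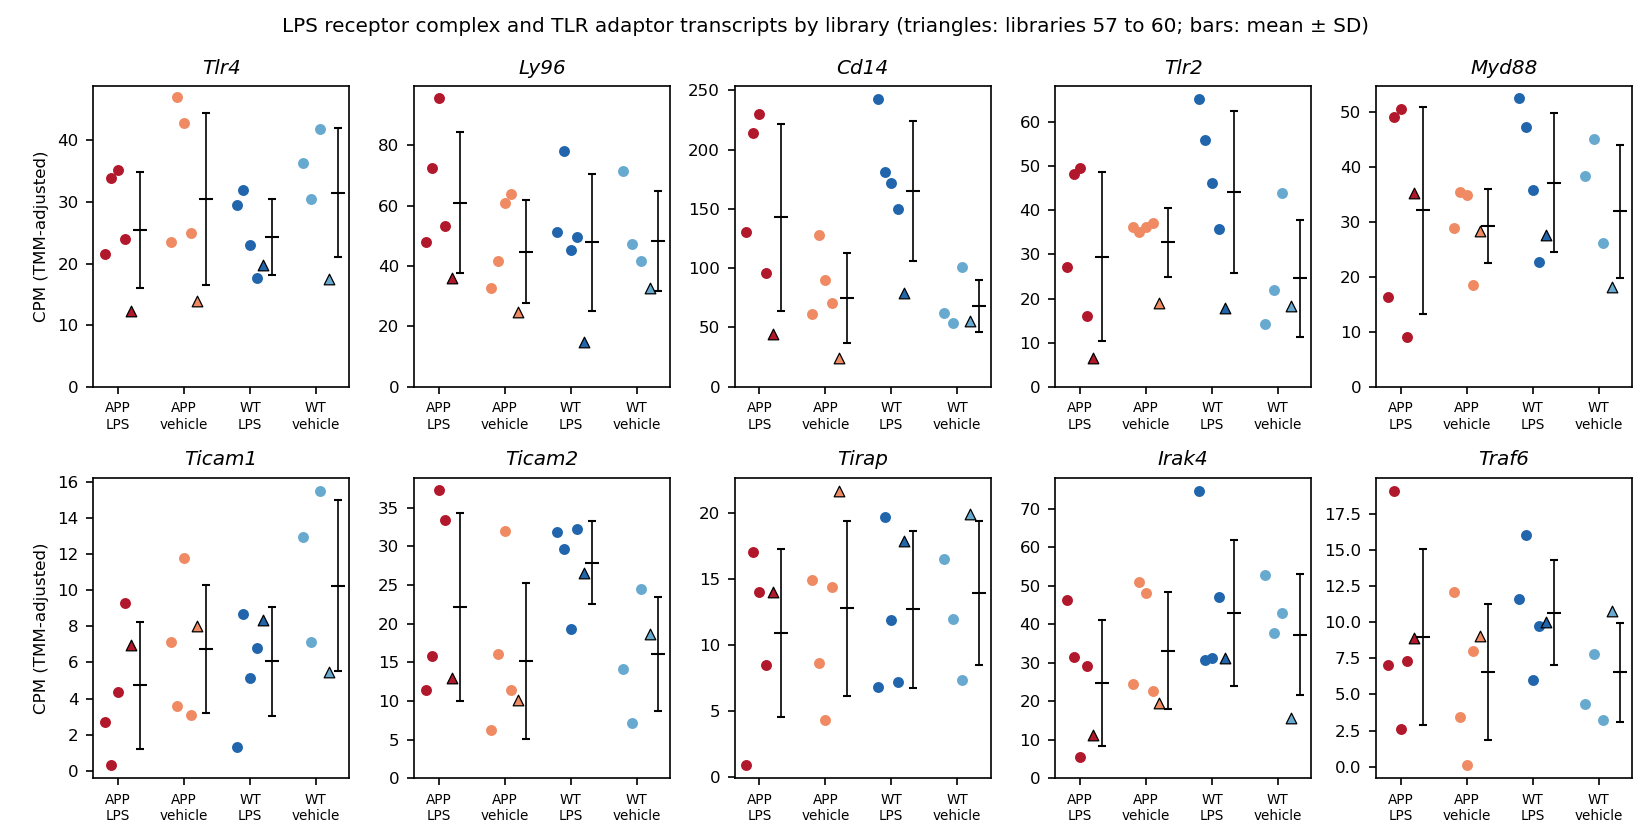
Level of each of the 10 members in every library (CPM, linear axes that differ between panels), by group from APP LPS to WT vehicle. Points are libraries, triangles are the libraries numbered 57 to 60, and bars give mean ± SD. Cd14 has its 4 LPS libraries other than the triangle at 95.6 CPM or more in APP and at 150 CPM or more in WT, while Ticam1, Tirap and Traf6 spread widely within groups.

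Whether Cd14 passed the test depended on the fit. By group, edgeR's quasi-likelihood test gave log2 changes of 0.93 ± 0.41 in APP (SE, adjusted p = 0.968), 1.27 ± 0.44 in WT (adjusted p = 1) and 1.10 ± 0.30 averaged over the genotypes (adjusted p = 0.422). It called 0 of 10 members in each of these comparisons, beside 0% of all genes in APP, 0% in WT and 0.0213% averaged. At an unadjusted p under 0.05 it held 1 member, Cd14, in each, beside 4.81%, 3.66% and 6.15% of all genes. DESeq2 called Cd14 averaged over the genotypes (log2 1.10, adjusted p = 0.028) and no member within one genotype, beside 0.699% of all genes in APP, 0.732% in WT and 1.33% averaged. limma voom called 0 members in each comparison, beside 0.0283% of all genes in APP, 0% in WT and 0.0425% averaged. With the pairs as a block, Cd14 rose by a log2 change of 0.90 ± 0.19 in APP (edgeR, adjusted p = 0.0357) and of 0.985 ± 0.144 averaged (adjusted p = 0.000868). In WT it stood at 1.07 ± 0.22 (adjusted p = 0.0574). The pair fit called 0.583%, 1.49% and 0.142% of 14068 genes in APP, averaged and in WT, and 1, 1 and 0 members. The change did not differ detectably between the genotypes: the interaction was −0.17 ± 0.28 with pairs and −0.34 ± 0.59 by group (log2, SE), with adjusted p = 1 in both.

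The averaged call held without each of the 9 pairs in turn (log2 0.88 to 1.08, adjusted p = 0.000544 to 0.00483), beside 116 to 274 of all genes called. The APP call did not: it was lost without the APP pairs 3 and 4 (adjusted p = 0.133), 7 and 8 (0.163), 11 and 12 (0.216) or 59 and 60 (0.0503), and with APP libraries alone in the fit (0.91 ± 0.16, adjusted p = 0.0819, where 0.106% of 12308 genes and 0 members were called). Without these APP pairs, 28, 9, 24 and 135 of all genes were called in APP. Without the pair 3 and 4, 59 and 60 or 41 and 42, the WT change passed (adjusted p = 0.0469, 0.0448 and 0.0337), beside 31, 32 and 36 of all genes called. The WT change itself hardly moved without 3 and 4 (log2 1.07 ± 0.22) or 59 and 60 (1.07 ± 0.22), and was 1.24 ± 0.24 without 41 and 42. Without each of the other 6 pairs the WT change did not pass, with the largest adjusted p without the WT pairs 21 and 22 (0.617, 5 of all genes called) and 9 and 10 (0.375, 3 of all genes called). Without the libraries numbered 57 to 60, the comparison by group averaged over genotypes called Cd14 too (log2 1.15, adjusted p = 0.0387), beside 0.22% of all genes.

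Transcripts that mark the cells moved in the same pairs. The summed microglia and macrophage markers were lower with LPS in 9 of 9 pairs, by log2 differences between −0.74 and −0.12 (median −0.34), while Cd14 was higher in each. The 5 measured monocyte and neutrophil markers of 8 listed summed to 68.8 to 246 CPM in APP LPS, 17.8 to 124.5 in APP vehicle, 63.0 to 250 in WT LPS and 33.7 to 122 in WT vehicle, and were higher with LPS in 9 of 9 pairs (median log2 difference 1.40). That sum was mostly S100a8, a calcium-binding protein that macrophages also make under stimulation, at 15.6 to 227 CPM and higher with LPS in 9 of 9 pairs. Ly6c2, which defines inflammatory monocytes, was at 0 in 17 of 19 libraries, and Mpo, a neutrophil granule enzyme, was at 0 in 13. Ccr2, a monocyte chemokine receptor, was higher with LPS in 4 of 9 pairs, and Csf3r, the receptor of the neutrophil growth factor G-CSF, in 5 of 9. Fibroblast, pericyte and smooth muscle markers differed by log2 −0.21 to 0.22 within pairs (median 0.01). Other sums were also lower with LPS in most pairs. These were the oligodendrocyte lineage in 7 of 9 (median −0.20), endothelium in 6 of 9 (−0.22), neurons in 6 of 9 (−0.09) and astrocytes in 6 of 9 (−0.02).

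**Figure D2:**
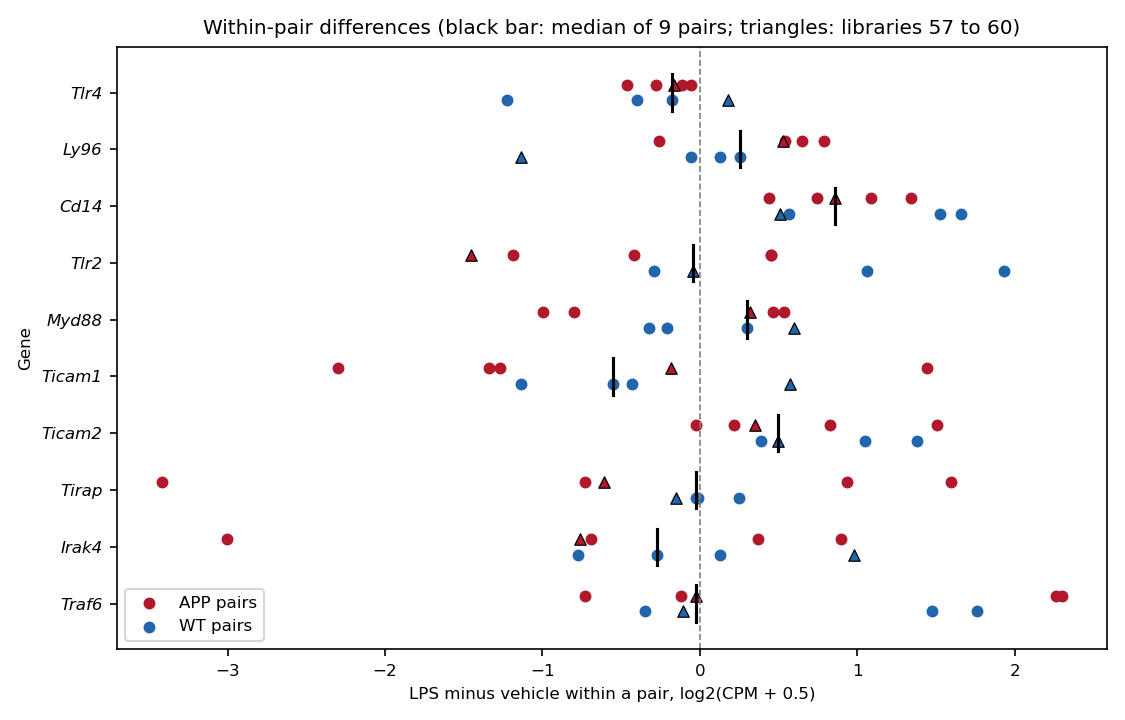
LPS minus vehicle difference of each member within the 9 consecutive-number pairs, on the log2(CPM + 0.5) scale. Points are pairs, coloured by genotype, triangles are the pairs from libraries 57 to 60, and black bars are medians over 9 pairs. Every Cd14 point lies right of 0, between 0.44 and 1.66, and 8 of 9 Tlr4 points lie left of it.

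Tlr4 (GRCm38 chromosome 4, 66827584 to 66930284, plus strand) encodes the signalling receptor itself. It stood at 21.6, 34.0, 35.2, 24.01 and 12.4 CPM with LPS and at 23.45, 47.1, 42.9, 25 and 13.9 CPM with vehicle in APP microglia. WT microglia held 29.5, 31.9, 23.0, 17.65 and 19.8 CPM with LPS and 36.25, 30.5, 41.85 and 17.4 CPM with vehicle. The groups overlapped almost throughout, and the lowest library of each APP group and of WT vehicle was 1 of those numbered 57 to 60. Tlr4 was lower with LPS in 8 of 9 pairs, with a median log2 difference of −0.18 and the widest in the WT pair 41 and 42 (−1.22). The share of all genes that were lower in 8 of 9 pairs was not counted. The averaged change was −0.32 ± 0.26 by group (edgeR, adjusted p = 1) and −0.31 ± 0.22 with pairs (adjusted p = 0.815), so no difference larger than the spread between libraries was found. Tlr4 was also the member that ran most closely with the macrophage marker sum across libraries (Spearman 0.89 over 19 libraries that share their depth and composition, a description only), and that sum was lower with LPS in all 9 pairs; its part in the Tlr4 differences was not tested.

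Ly96 (chromosome 1, 16688051 to 16709611, plus strand) encodes MD-2, the subunit that binds LPS. APP microglia held 47.8, 72.3, 95.6, 53.2 and 35.9 CPM with LPS and 32.7, 41.7, 60.9, 63.7 and 24.8 CPM with vehicle. WT microglia held 51.4, 78.1, 45.3, 49.8 and 14.7 CPM with LPS and 71.5, 47.15, 41.7 and 32.9 CPM with vehicle. In APP it was higher with LPS in 4 of 5 pairs, with 51 and 52 as the exception, and in WT in 2 of 4. The change with pairs was 0.46 ± 0.24 in APP (edgeR, adjusted p = 0.697) and −0.20 ± 0.27 in WT (adjusted p = 1). The difference of these changes, 0.66 ± 0.36 on the log2 scale, had an unadjusted p of 0.0811 and an adjusted p of 1 in edgeR.

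Tlr2 (chromosome 3, 83836272 to 83841767, minus strand) stood at 27.1, 48.2, 49.6, 16.0 and 6.58 CPM with LPS and at 36.3, 35.15, 36.1, 37.2 and 18.9 CPM with vehicle in APP microglia. In WT microglia it stood at 65.25, 55.85, 46.3, 35.8 and 17.8 CPM with LPS and at 14.3, 22.0, 44.0 and 18.3 CPM with vehicle. The APP vehicle libraries other than the fifth stood between 35.15 and 37.2 CPM, while both LPS groups spread widely and overlapped their vehicle groups. LPS libraries were higher in 2 of 5 APP pairs and 2 of 4 WT pairs, from a log2 difference of −1.46 (APP pair 59 and 60) to 1.93 (WT pair 9 and 10). The changes were −0.44 ± 0.38 in APP (edgeR with pairs, adjusted p = 0.89) and 0.67 ± 0.43 in WT (adjusted p = 1). The interaction, −1.11 ± 0.57 with pairs and −0.99 ± 0.66 by group, had unadjusted p-values of 0.0667 and 0.145 in edgeR and adjusted p = 1 in both, so a difference between genotypes was not established.

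Promoter windows from RefSeq on GRCm38.p6, covering 250 bases before and 50 after the start site, were at hand for 6 of the members: Tlr2, Myd88, Ticam1, Tirap, Irak4 and Traf6. They were searched on both strands for the NF-κB consensus, the binding motif of the factor at the end of the MyD88 route, and for GAAANNGAAA, the core of the element bound by interferon regulatory factors at the end of the TRIF route. Tlr2 alone of the 6 held the first, which 8.46% of 32851 windows of this length hold, and Myd88 alone held the second, which 3.44% hold. These windows are shown because they carry the matches, which are in capitals. The Tlr2 matches start at −173 (with an overlapping one at −172) and −8 from the start site, and the Myd88 match starts at −40. GENCODE places the start of both genes upstream of the RefSeq start, so the Tlr2 match at −8 and the Myd88 match lie inside the genes as GENCODE annotates them. A match is a description of letters and not a measured site.
Tlr2, chr3:83841559-83841858, minus strand: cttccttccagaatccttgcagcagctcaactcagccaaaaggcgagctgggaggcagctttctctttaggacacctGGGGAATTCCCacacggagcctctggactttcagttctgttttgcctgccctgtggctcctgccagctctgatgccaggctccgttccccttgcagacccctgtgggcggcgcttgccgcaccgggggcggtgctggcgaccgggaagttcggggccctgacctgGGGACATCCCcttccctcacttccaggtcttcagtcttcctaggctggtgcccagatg
Myd88, chr9:119339969-119340268, minus strand: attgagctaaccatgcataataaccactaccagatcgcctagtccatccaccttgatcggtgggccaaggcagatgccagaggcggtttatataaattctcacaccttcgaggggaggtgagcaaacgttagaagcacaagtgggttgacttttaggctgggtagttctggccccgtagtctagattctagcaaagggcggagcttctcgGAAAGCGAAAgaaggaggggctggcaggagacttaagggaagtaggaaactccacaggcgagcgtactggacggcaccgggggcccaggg

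Myd88 (chromosome 9, 119335934 to 119341411, minus strand) encodes the adaptor shared by most Toll-like receptors. APP microglia held 16.4, 49.2, 50.6, 9.06 and 35.3 CPM with LPS and 28.9, 35.5, 34.9, 18.6 and 28.3 CPM with vehicle. WT microglia held 52.55, 47.3, 35.85, 22.6 and 27.5 CPM with LPS and 38.3, 45.1, 26.25 and 18.1 CPM with vehicle. Of the 5 APP LPS libraries 2 lay above and 2 below all APP vehicle libraries, and Myd88 was higher with LPS in 5 of 9 pairs. Its averaged change was 0.18 ± 0.29 by group and −0.0020 ± 0.22 with pairs (edgeR, adjusted p = 1 in both). Acaa1a, on the opposite strand, shares 290 of its exon bases (11.3%), and whether strand was used in counting is not given in the sources used here.

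Tirap (chromosome 9, 35184551 to 35200291, minus strand), the adaptor that brings MyD88 to the membrane, stood at 0.944, 17.03, 14.03, 8.48 and 14.04 CPM with LPS and at 14.9, 8.66, 4.31, 14.4 and 21.7 CPM with vehicle in APP. In WT it ranged over 6.86 to 19.7 CPM with LPS (median 11.9) and over 7.36 to 19.95 CPM with vehicle (median 14.2). The single low library, APP LPS replicate 1 with 23 counts, set the widest within-pair difference of any member at −3.42 (log2). Tirap was higher with LPS in 3 of 9 pairs, and its averaged change with pairs was −0.18 ± 0.52 (edgeR, adjusted p = 0.991). On the opposite strand, Gm39318 shares 446 of the exon bases of Tirap (9.05%) and Srpr shares 39 (0.791%).

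Ticam2 (chromosome 18, 46557291 to 46574533, minus strand) encodes TRAM, which links TLR4 to TRIF. APP microglia held 11.4, 15.8, 37.3, 33.4 and 12.98 CPM with LPS and 6.21, 16.0, 32.01, 11.4 and 10.1 CPM with vehicle. WT microglia held 31.8, 29.6, 19.3, 32.2 and 26.6 CPM with LPS and 14.1, 7.12, 24.5 and 18.7 CPM with vehicle. In WT only the lowest LPS library lay within the vehicle range. LPS libraries were higher in 8 of 9 pairs, with the exception at −0.02 (APP pair 7 and 8), and the share of all genes that did so was not counted. The averaged change was 0.67 ± 0.33 by group (edgeR, adjusted p = 0.823) and 0.72 ± 0.29 with pairs (unadjusted p = 0.022, adjusted p = 0.371). Ticam2 was the member nearest to a call after Cd14 and did not pass. Its neighbour Tmed7, read from the same strand, shares 838 of its exon bases (14.5%). Where these bases lie relative to the 3′ ends was not looked at, and whether reads were divided between both genes was not tested.

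Ticam1 (chromosome 17, 56269319 to 56276786, minus strand) encodes TRIF. It stood at 2.67, 0.328, 4.37, 9.31 and 7.00 CPM in APP LPS, 7.15, 3.57, 11.8, 3.11 and 8.01 CPM in APP vehicle, 1.30, 8.70, 5.15, 6.79 and 8.38 CPM in WT LPS, and 12.97, 7.12, 15.5 and 5.47 CPM in WT vehicle. The lowest library, APP LPS replicate 2, held 7 counts. Ticam1 was higher with LPS in 2 of 9 pairs, with an averaged change of −0.69 ± 0.69 (edgeR with pairs, adjusted p = 0.909).

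Irak4 (chromosome 15, 94543643 to 94581815, plus strand), the first kinase of the MyD88 complex, stood at 46.2, 31.4, 5.59, 29.2 and 11.3 CPM in APP LPS and at 24.6, 51.0, 48.2, 22.55 and 19.5 CPM in APP vehicle. In WT it stood at 74.65, 30.65, 31.1, 47.1 and 31.1 CPM with LPS and at 52.75, 37.7, 43.0 and 15.55 CPM with vehicle. The 2 lowest libraries were both APP LPS libraries (replicates 3 and 5), and Irak4 was higher with LPS in 4 of 9 pairs, with a median log2 difference of −0.27. Its change with pairs was −0.59 ± 0.45 in APP (edgeR, adjusted p = 0.86) and 0.01 ± 0.47 in WT (adjusted p = 1). Twf1 on the opposite strand shares 395 of its exon bases (7.87%).

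Traf6 (chromosome 2, 101678429 to 101701669, plus strand), the ubiquitin ligase below IRAK4, stood at 7.06, 19.05, 2.61, 7.31 and 8.88 CPM in APP LPS and at 12.05, 3.47, 0.150, 8.00 and 9.04 CPM in APP vehicle. In WT it stood at 11.6, 16.0, 5.98, 9.76 and 9.98 CPM with LPS and at 4.37, 7.77, 3.20 and 10.8 CPM with vehicle. The lowest APP vehicle library held 3 counts, at the floor. Differences within pairs lay between 1.47 and 2.30 in 4 pairs and between −0.73 and −0.02 in the other 5 (log2). Without the pairs from libraries 57 to 60, whose differences were −0.11 and −0.02, the median was 1.47, against −0.02 with them. The averaged change was 0.85 ± 0.69 (edgeR with pairs, adjusted p = 0.858).

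**Figure D3:**
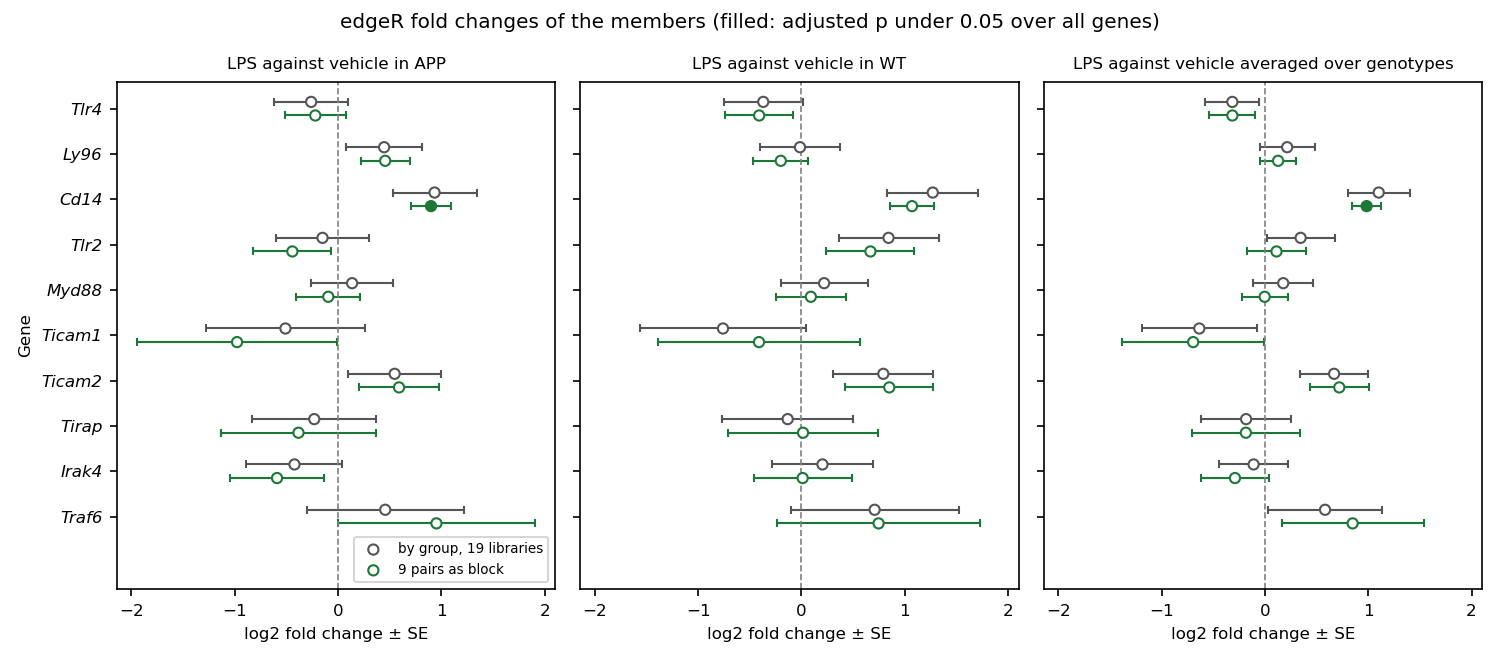
Log2 fold changes with LPS from edgeR (points, with SE bars) for each member in APP, in WT and averaged, by group over 19 libraries (grey) and with 9 pairs as a block (green). Filled points have an adjusted p under 0.05 over all genes tested, which holds for Cd14 with pairs in APP (0.90) and averaged (0.985) and for no other point.

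By group, 5 of 10 members had log2 changes above 0 in APP, 6 in WT and 6 averaged, with medians of −0.0072, 0.21 and 0.20, beside medians over all genes of −0.03, −0.0078 and −0.02. The spread between libraries, given as the biological coefficient of variation that edgeR estimates, was below the median of all genes (0.634) for 7 members and above it for Ticam1 (0.81), Traf6 (0.81) and Tirap (0.66). Against edgeR's trend for genes of similar level the order differed. Ticam1, Traf6 and Tirap lay below their trend values (1.06, 0.95 and 0.75). Cd14 (0.46, trend 0.37), Tlr2 (0.51, trend 0.47) and Irak4 (0.52, trend 0.47) lay above theirs, and the other members below.

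APP and WT microglia did not differ detectably in any member. In edgeR's test by group, 0 of 10 were called with vehicle or after LPS or in the interaction, beside 0% of all genes in each, and 0 had an unadjusted p under 0.05, beside 2.85%, 3.42% and 2.73% of all genes. DESeq2 called 0 members too, beside 0.588% of all genes with vehicle, 0.608% after LPS and 0.738% in the interaction. limma voom likewise called 0, beside 0%, 0.00709% and 0% of all genes. Over these 30 values the log2 differences ran from −0.99 (Tlr2, interaction) to 0.46 (Ly96, interaction), and the smallest unadjusted p was 0.103, for Irak4 after LPS (−0.79 ± 0.47, lower in APP). Cd14 differed between APP and WT by −0.21 ± 0.40 after LPS and by 0.13 ± 0.43 with vehicle (log2, SE, adjusted p = 1 in both). The ranges of APP and WT overlapped for all 10 members with both treatments, while 0.496% of all genes after LPS and 0.843% with vehicle had ranges that did not overlap.

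The rest of the pathway was taken from 5 lists of 60 genes, 54 of which were tested. The 12 tested targets are genes that the pathway is known to switch on. Of these, 10 were called higher with LPS in the pair fit averaged over the genotypes, beside 1.49% of all genes called. By group 2 of them, Il1b and Tnf, were called, beside 0.0213% of all genes. All 12 had log2 changes above 0 by group, and 11 had an unadjusted p under 0.05 (edgeR), beside 6.15% of all genes. Il1b, encoding interleukin-1β, stood at 399 ± 200 CPM with LPS against 46.2 ± 50.7 with vehicle in APP and at 312 ± 96.6 with LPS against 39.3 ± 31.4 with vehicle in WT (SD), a log2 change of 3.63 ± 0.34 with pairs (edgeR, adjusted p = 2.12e-05). Tnf, encoding tumour necrosis factor, changed by 1.57 ± 0.20 (adjusted p = 0.000262), and Nfkbia, encoding the inhibitor that holds NF-κB in the cytoplasm, by 1.01 ± 0.11 (adjusted p = 4.06e-05). The other called targets were Cxcl1, Il6, Ptgs2, Acod1, Saa3, Sod2 and Ccl5, with log2 changes between 0.98 (Ptgs2) and 3.16 (Cxcl1). Cxcl10 and Nos2 did not pass, and Ifnb1, the interferon-β gene, was too low to test.

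Among 8 tested inhibitors, 1 was called higher with LPS in the pair fit averaged over the genotypes, beside 1.49% of all genes. This was Irak3, a kinase-dead relative of IRAK4 that blocks the complex. In APP it stood at 127 ± 57.0 CPM with LPS against 53.2 ± 21.2 with vehicle (SD). In WT it stood at 132 ± 53.2 CPM with LPS against 54.1 ± 15.9 with vehicle (SD). Its log2 change was 1.17 ± 0.22 with pairs (edgeR, adjusted p = 0.0087) and 1.27 ± 0.25 by group (adjusted p = 0.106). At an unadjusted p under 0.05 averaged over the genotypes, 5 of the 8 inhibitors were higher with LPS in the pair fit and 4 by group, beside 9.21% and 6.15% of all genes in either direction. Of 13 other receptors and partners tested, 0 were called with pairs by edgeR and 3 had an unadjusted p under 0.05. Ly86, the MD-1 partner of the TLR4 relative RP105, came closest at −0.855 ± 0.213 (adjusted p = 0.0516). Tlr1, a partner of TLR2, was named for its rank by group (edgeR, averaged, unadjusted p = 0.206) and was not 1 of those 3. With pairs Tlr1 stood at 0.74 ± 0.39 (edgeR, unadjusted p = 0.0757, adjusted p = 0.641). Of the 17 genes on this list 14 were in the count tables. Tlr9, Tlr11 and Tlr12 were not found there by symbol, and Tlr5 was too low to test. In the pair fit averaged over the genotypes, edgeR called 0 of 14 kinases and ubiquitin enzymes of the MyD88 route and 0 of 7 TRIF route genes, and 0 of either had an unadjusted p under 0.05. In APP alone Tab2 did in the pair fit (unadjusted p = 0.0137, adjusted p = 0.395), and by group Ikbke did averaged over the genotypes (0.72 ± 0.33, unadjusted p = 0.0418, adjusted p = 0.787). Those with the smallest p by group were Tab2 (−0.23 ± 0.11), Chuk (−0.26 ± 0.17), Ikbke (0.49 ± 0.28) and Tbk1 (0.37 ± 0.19), given here with pairs. The median log2 change with pairs was 2.06 over the targets, 0.68 over the inhibitors, −0.0041 over the other receptors, −0.02 over the MyD88 route and 0.07 over the TRIF route, beside −0.04 over all genes and 0.06 over the 10 members. These lists were chosen with results of these data known, so their counts are descriptions.

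Cd14 and Tlr2 ran together most closely of all member pairs across the 19 libraries. Spearman correlations, given as descriptions over libraries that share depth and cell composition, were 0.76 for Cd14 with Tlr2, 0.62 for Cd14 with Ticam2, 0.59 for Ly96 with Cd14 and 0.56 for Tlr4 with Ly96. The lowest of all was −0.57, for Tirap with Irak4. With the macrophage marker sum, Tlr4 had 0.89, Ly96 0.68 and Irak4 0.51, Cd14 had 0.41, and Tirap (−0.29) and Traf6 (−0.40) were negative. The libraries numbered 57 to 60, lowest in macrophage markers, held 3 of the 4 lowest levels of Tlr4, Ly96, Cd14 and Irak4, and 0 of the 4 lowest of Ticam1, Tirap and Traf6. The part of the macrophage content in the differences between libraries was not tested.

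**Figure D4:**
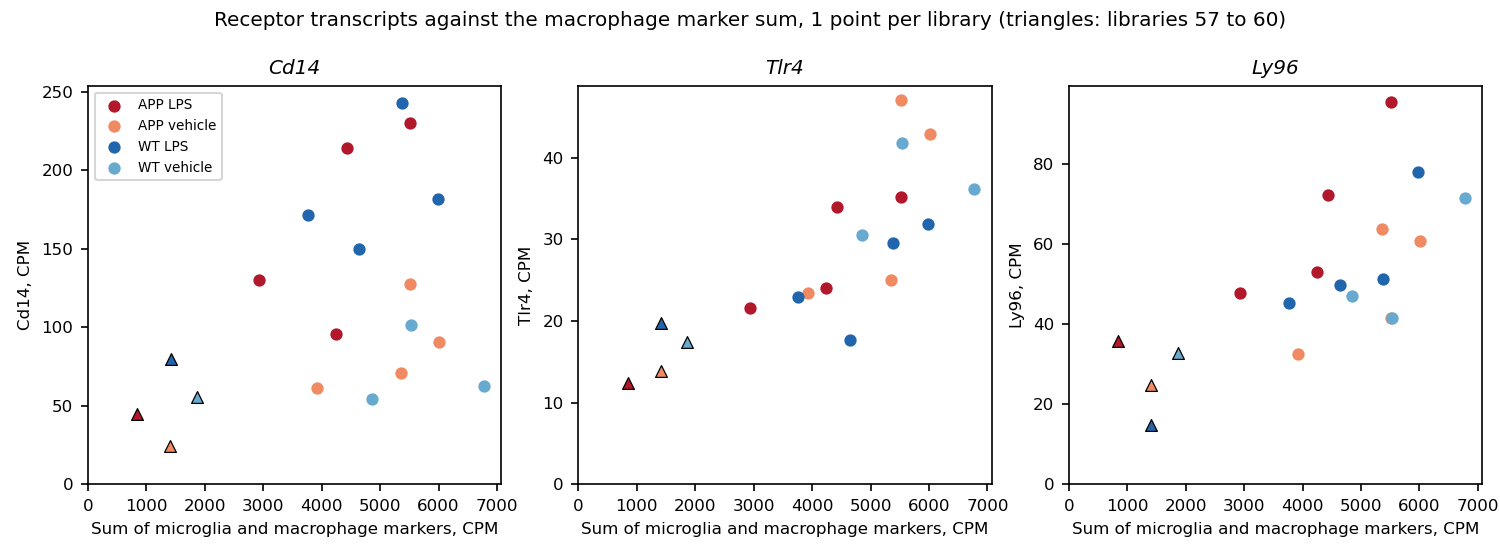
Cd14, Tlr4 and Ly96 (CPM) against the summed level of 13 microglia and macrophage markers (CPM) in each of 19 libraries, coloured by group, with triangles for the libraries numbered 57 to 60. Tlr4 and Ly96 are higher where the marker sum is higher, and above a sum of 2932 CPM the LPS libraries lie at 95.6 to 243 CPM of Cd14 and the vehicle libraries at 54.1 to 128 CPM.

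Among 8235 genes with a mean of at least 10 CPM, those most like Tlr4 across the 19 libraries were Cd300ld (Spearman 0.90, 28.5 to 325 CPM), Evi2a (0.89) and Arhgap25 (0.88). Those most like Cd14 were Vasp, an actin regulator (0.96, 56.8 to 207 CPM), Prdx5, a peroxiredoxin (0.94), and Ms4a6d (0.93). The sets named for Tlr4 and for Cd14 had no gene in common.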

How the data were processed

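RNA of cultured mouse microglia was sequenced in 19 QuantSeq 3′ libraries. Per the submitters' processing notes, the tools were FastQC, Trimmomatic, kallisto and DESeq2. The authors deposited estimated counts by gene symbol from kallisto. These were already whole, so rounding changed 0 values. Not given in the sources used here: the transcript build, and whether strand and molecular identifiers were used. No gene total was below 10. Groups came from sample titles. The label of WT LPS replicate 1 has the library number 5 and its file the number 6.

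CPM values were computed here with TMM-adjusted totals. Tests were edgeR 4.0.16 quasi-likelihood F tests (limma 3.58.1, R 4.3.3) in 1 fit over 19 libraries by group, after filterByExpr, with Benjamini-Hochberg adjustment over the 14113 genes kept and a threshold of 0.05. Pairs are libraries of 1 genotype with consecutive numbers. The labels do not state that these were processed together. In the APP groups they are also the label's replicate numbers. Deviations from group means on log2(CPM + 0.5) correlated within all 9 pairs (0.128 to 0.432, over the limit of 0.1 set for pairing). Each paired LPS library matched its own vehicle library best among the vehicle libraries of its genotype. Matches across genotypes were not looked at. At a pseudocount of 0.1 CPM, 8 of 9 pairs passed. Counts differed beyond sampling noise between all libraries of a group (smallest chi-square per degree of freedom 85.9 over 36 pairings). The alternatives were DESeq2 1.42.0, limma voom, other scalings, no filter, replicate and pair blocks, and leaving out libraries. The edgeR steps were tested on simulated data. Members, lists and the named genes' rule (all members; of each list the genes called, else the 2 with smallest p averaged over genotypes; 3 genes most like Tlr4 and Cd14) were chosen with earlier results of these data known. Gene coordinates are GRCm38, from GENCODE. The floor of 3 counts covers counting error only.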

Additional observations from a re-analysis of the deposited data

Results flagged for a closer look

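Tlr2 in APP vehicle replicate 5 (library number 59) stood at 18.9 CPM, while the other 4 APP vehicle libraries stood between 35.15 and 37.2 CPM. Its gap to the nearest of them was 0.887 of the group's range, which is large for 5 samples. It was the only such value among 40 groups of 4 or 5 libraries looked at, where chance gives about 1 in 20. The summed macrophage markers of libraries 57 to 60 were also the lowest of the series (845 to 1862 CPM, against 2932 to 6775 CPM in the others), and their part in this value was not tested.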

How the results depend on the processing

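Cd14 kept its direction with LPS under every alternative tried. Beside the call with consecutive pairs as the replicate block, 1 member, Cd14, was called for LPS averaged over genotypes with DESeq2, with the labels' replicate numbers as the replicate block (log2 1.19, adjusted p = 0.00522; 26 of all genes called) and without libraries 57 to 60 (31 of all genes). Without a block its averaged adjusted p ran from 0.028 to 0.661 over 25 alternatives. Fits with consecutive pairs that left out pairs, or used APP libraries alone, were added after seeing the data: 1 member was called in APP and averaged without the WT pair 9 and 10 (125 and 140 of all genes), in WT and averaged without the APP pair 59 and 60 (32 and 274), and in APP, WT and averaged without libraries 57 to 60 (168, 32 and 280). The labels' numbers do not pair the WT libraries (correlations 0.0731, −0.0861, −0.117 and −0.0618). The other 9 members were called in 0 of 1458 alternatives, with a smallest adjusted p of 0.371 (Ticam2, consecutive pairs). Of 130 alternatives of within-pair medians 129 moved by less than the spread between pairs, and Traf6 was at 1.47 without libraries 57 to 60.

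Among the other pathway genes, 0 in WT, 0 in APP and 2 averaged were called by group, against 3, 3 and 8 with DESeq2, 6, 9 and 11 with the consecutive pairs as block, 2 in APP and 4 averaged with limma voom, 1 in APP and 8 averaged with the labels' replicate block, and 1 in APP and 6 averaged without libraries 57 to 60. These fits tested 54 of the genes, and DESeq2 57. Leaving out each replicate in turn gave 0 to 4 averaged and 0 to 1 in APP. The 4 stood beside 5 or 11 of all genes called, and the 1 in APP beside 1. Over all genes, the fit by group called 0 in WT, 0 in APP and 3 averaged. DESeq2 called 112, 107 and 203, and the consecutive pairs as block 20, 82 and 210. In APP and averaged, limma voom called 4 and 6 of all genes and the labels' replicate block 2 and 26. Without libraries 57 to 60 these counts were 4 and 31.

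Some uncalled changes turned sign (log2; the cause was not tested). With limma voom these were Myd88 with LPS in APP (−0.017), Cd14 (−0.057) and Traf6 (−0.50) for APP against WT with vehicle, Tlr4 after LPS (−0.059), and the interactions of Ticam1 (−0.20) and Traf6 (0.14). Traf6 with vehicle stood at −0.0067 with DESeq2 and −0.0074 with median-ratio scaling. With the labels' replicate block, Ly96 with LPS in WT stood at 0.24, Myd88 in APP at −0.0955 and the Traf6 interaction at 0.15. With the consecutive pairs as block, Tirap in WT stood at 0.015, Myd88 in APP at −0.095 and averaged at −0.0020, and the interactions of Ticam1 and Traf6 at −0.57 and 0.21. Without libraries 57 to 60, Ly96 in WT stood at 0.066 and Ticam2 for APP against WT with vehicle at 0.11.

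Leaving out each library in turn gave, for LPS in APP, −0.017 to 0.80 (Traf6), −0.088 to 0.37 (Myd88), −0.42 to 0.11 (Tlr2) and −0.45 to 0.067 (Tirap). In WT it gave −0.091 to 0.43 (Irak4), −0.26 to 0.24 (Ly96) and −0.35 to 0.11 (Tirap), and averaged −0.29 to 0.018 (Irak4). For APP against WT after LPS the ranges were −0.085 to 0.24 (Tlr4), −0.43 to 0.026 (Myd88), −0.44 to 0.076 (Tirap) and −0.45 to 0.022 (Cd14). With vehicle they were −0.15 to 0.38 (Cd14), −0.26 to 0.13 (Tlr4), −0.27 to 0.14 (Ly96), −0.31 to 0.088 (Myd88), −0.34 to 0.37 (Traf6), −0.40 to 0.11 (Tirap), −0.42 to 0.053 (Irak4) and −0.56 to 0.19 (Ticam2). For the interaction they were −0.074 to 0.32 (Tlr4), −0.15 to 0.55 (Ticam1), −0.31 to 0.15 (Myd88), −0.34 to 0.20 (Tirap), −0.53 to 0.23 (Ticam2) and −0.73 to 0.096 (Traf6).

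The lowest libraries of Ticam1, Tirap and Traf6 held 7, 23 and 3 counts, and edgeR's estimate of their spread between libraries beyond counting error, as a coefficient of variation, was 0.81, 0.66 and 0.81.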
